A study of Mus musculus with 8 samples.

Results

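The transcripts described here are 10 AP-1 and immediate early genes, taken by gene symbol from the deposited expression table: Fos, Fosb, Fosl1, Fosl2, Jun, Junb, Jund, Atf3, Egr1 and Ier3. They are 10 of the 34745 genes in that table, and all 10 passed the filter on low counts that left 15684 genes for testing. RNA was sequenced in 8 libraries from excised skin of mice aged 16 weeks and labelled male, with 4 libraries in each of 2 groups. The NcstnΔKC mice had the genotype Ncstn flx/flx with Krt14 CreER+/- and were given tamoxifen by gavage, starting at 8 weeks of age with 5 daily doses of 20 mg/kg and continuing with a dose every 10 days. The product of Ncstn, nicastrin, belongs to the γ-secretase protease complex. The keratin 14 promoter directs the recombinase to basal keratinocytes and their descendants, so that other skin cells keep the gene. The normal mice received corn oil. The protocol text gives them the genotype of the treated mice, whereas their genotype label reads wildtype.

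AP-1 is a dimer of basic leucine zipper proteins, formed by a Jun protein with a Fos protein, with another Jun protein or with a relative such as Atf3. Several of its genes are called immediate early. These are transcribed within minutes of a growth factor, cytokine, wound or mechanical stimulus, with no need for new protein, and some of their messages decay within the hour. In skin, AP-1 is known for its part in keratinocyte proliferation and differentiation, in wound repair and in inflammation. Mice that lose JunB and c-Jun together in the epidermis are known to develop inflamed, thickened skin.

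Total counts ran from 5835422 to 8663753 in the normal libraries and from 11881506 to 12893174 in the NcstnΔKC libraries. Ncstn was at 60.6 ± 1.54 CPM in normal and 57.7 ± 6.86 CPM in NcstnΔKC skin (SD, n = 4 each), and its log2 fold change was -0.07 ± 0.12 (SE, edgeR adjusted p = 0.663). Counts cover the whole gene, and the share of RNA from cells that keep it was not measured. Levels in CPM are counts relative to the scaled size of the library. Normal replicates 3 and 4 and NcstnΔKC replicates 3 and 4 held 22304 to 37109 counts of Xist, the transcript of the inactive X chromosome, and 0 to 3 counts of 4 Y-linked genes. In the other 4, Xist had 4 to 9 counts and the Y-linked genes 886 to 4453. Each of these subsets, 2 against 2 libraries, was therefore also fitted alone. Basal keratinocyte markers, with 0 of 13 genes absent, summed to 9268 to 13597 CPM in normal and 13625 to 17275 CPM in NcstnΔKC libraries. Of all genes tested, 44.1% passed an adjusted p of 0.05, 21.4% higher and 22.7% lower in NcstnΔKC skin. These shares were 33.9% and 14.2% with scaling by total counts alone, which moved the median of all genes to 0.29 on the log2 scale, and 6.52% and 36.9% with scaling by basal keratinocyte genes, which moved it to -0.49. The labels number the replicates without saying that they are separate animals, and p-values then measure the spread between these libraries.

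Ier3, Junb and Fosl2 rose, so 3 of 10 members were higher against a background of 21.4%, and 0 of 10 were lower against 22.7% (edgeR's quasi-likelihood test over all genes; 0 members were lower also at an unadjusted p under 0.05, by limma-voom and by DESeq2). With scaling by total counts alone, which called 48.1% of all genes, 4 were higher and 0 lower, and with scaling by basal keratinocyte genes (43.5%) 2 were higher and 1 lower. The median log2 fold change of the 10 was 0.08, beside -0.02 over all genes tested. A count of 3 in 10 is near the background share, and the size of the rise in each gene is what follows. In bulk tissue, more cells of a type and more RNA per cell cannot be told apart.

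**Figure D1:**
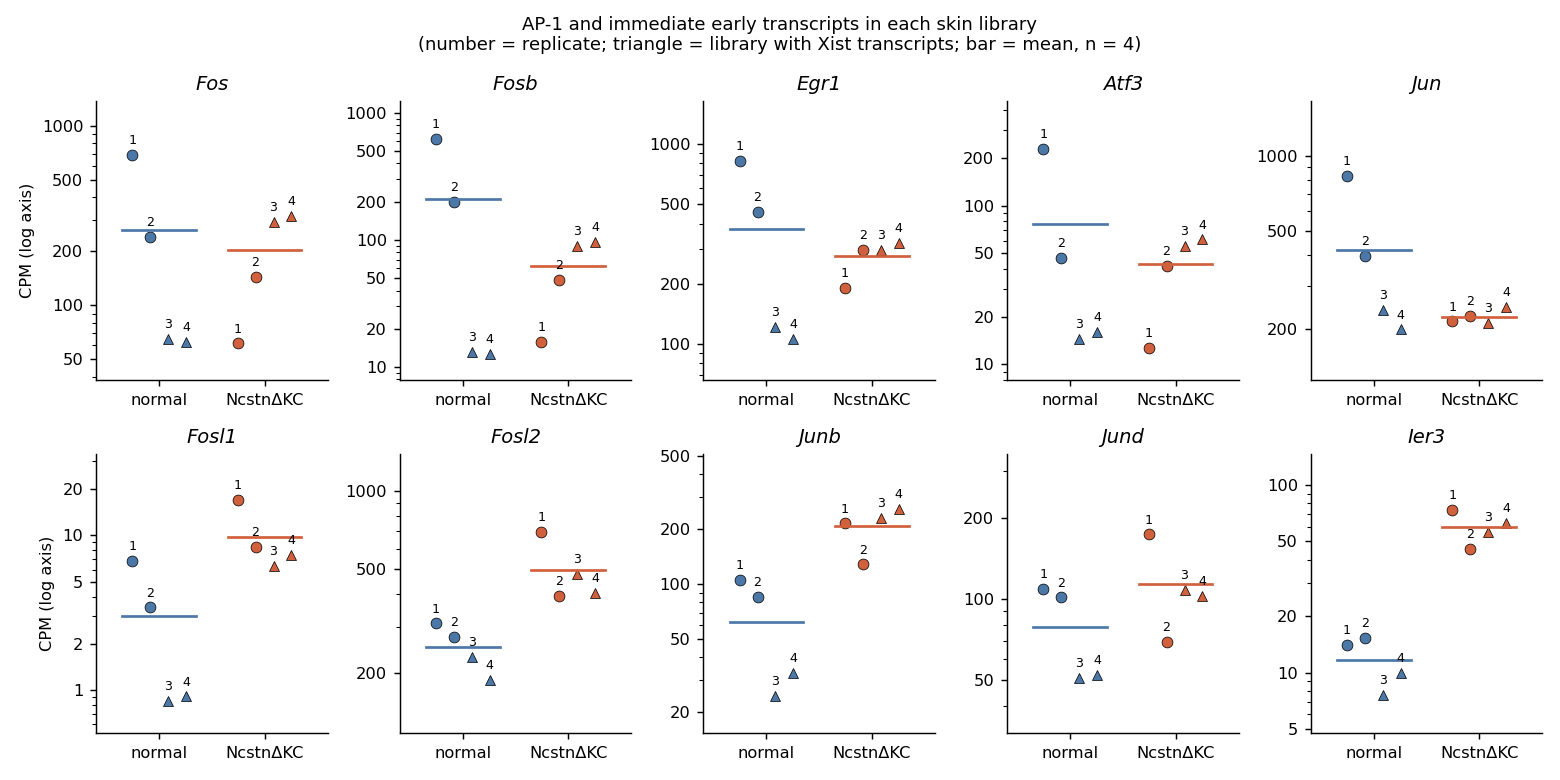
Level of each of the 10 transcripts in CPM (counts relative to scaled library size, log axis) in 4 normal and 4 NcstnΔKC libraries. Points are libraries with their replicate number, triangles are libraries with Xist transcripts and bars are group means. The groups do not overlap for Fosl2, Junb and Ier3, while Fosb runs from 12.6 to 623 CPM within the normal group.

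Ier3 (ENSMUSG00000003541, mm10 chromosome 17, 35821684 to 35822923) encodes a short-lived protein induced by NF-κB and ERK signalling that modulates survival of stressed cells. Levels, here and below in the order of replicates 1 to 4, were 14.0, 15.3, 7.62 and 9.90 CPM in normal skin and 73.4, 45.6, 56.0 and 62.9 CPM in NcstnΔKC skin. Every NcstnΔKC library lay above every normal library. The log2 fold change was 2.35 ± 0.25 (SE, edgeR adjusted p = 2.55e-04, n = 4 each), a 5.10-fold rise with a 95% interval of 1.79 to 2.92 on the log2 scale.

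Junb (ENSMUSG00000052837, chromosome 8, 84976909 to 84978748), a Jun protein that competes with c-Jun for partners, was at 106, 85.3, 24.6 and 32.7 CPM in normal skin. NcstnΔKC skin gave 215, 128, 231 and 259 CPM. The groups did not overlap, although the normal libraries themselves differed 4.31-fold, with replicates 1 and 2 above replicates 3 and 4. Junb rose by 1.75 ± 0.46 on the log2 scale (SE, edgeR adjusted p = 0.0145). Prdx2, on the opposite strand, overlaps Junb in GENCODE M21, and the strand setting of the counting is not given in the sources used here. Prdx2 had 88.2 ± 21.3 CPM in normal and 87.4 ± 6.98 CPM in NcstnΔKC skin (SD, n = 4 each).

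Fosl2 (ENSMUSG00000029135, chromosome 5, 32135801 to 32157842) encodes Fra-2, a Fos protein without the strong activation domain of c-Fos. Its levels were 309, 275, 229.6 and 187 CPM in normal skin and 697, 396, 481 and 407 CPM in NcstnΔKC skin. The groups did not overlap, and the highest library was NcstnΔKC replicate 1. Fosl2 rose by 0.98 ± 0.23 on the log2 scale (SE, edgeR adjusted p = 0.00788). This call ended when libraries were scaled by basal keratinocyte genes (0.55, adjusted p = 0.152, between 4.40e-04 and 0.196 in 25 alternatives).

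Of all genes tested, 41.6% had groups that did not overlap, 20.9% with NcstnΔKC higher, so the 3 members with that pattern are again near the background share.

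Fosl1 (ENSMUSG00000024912, chromosome 19, 5447703 to 5455945) encodes Fra-1, a Fos protein of migrating and transformed epithelial cells, and was the scarcest member. It had 6.83, 3.43, 0.847 and 0.912 CPM in normal skin, from 45, 17, 6 and 7 counts. In NcstnΔKC skin it reached 16.9, 8.40, 6.36 and 7.46 CPM. Normal replicate 1 lay within the range of the NcstnΔKC group, and the log2 fold change of 1.71 ± 0.64 (SE, edgeR adjusted p = 0.0552) did not pass. It passed without normal replicate 1 (2.64, adjusted p = 0.00925), with the Wald test of DESeq2 (1.72, adjusted p = 0.0182) and with limma-voom (2.11, adjusted p = 0.0244), and its adjusted p ran from 8.41e-04 to 0.226 over 25 alternatives. Ccdc85b, on the opposite strand, overlaps Fosl1 and had 1.61 to 4.03 CPM across the libraries.

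Jund (ENSMUSG00000071076, chromosome 8, 70697739 to 70700616), the Jun protein that is present in resting cells, had 109, 101, 50.8 and 52.4 CPM in normal and 174, 69.5, 108 and 102 CPM in NcstnΔKC skin. The groups overlapped and the log2 fold change of 0.53 ± 0.34 (SE, edgeR adjusted p = 0.231) did not pass. Normal replicates 1 and 2 were again above normal replicates 3 and 4.

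The 5 other members did not pass, and in each of them normal replicate 1 was the highest of all 8 libraries. Fos (ENSMUSG00000021250, chromosome 12, 85473890 to 85477273), which encodes c-Fos, had 690, 241, 65.1 and 62.7 CPM in normal skin. In NcstnΔKC skin it had 61.4, 144, 293 and 315 CPM. The normal group spanned 11.0-fold and the NcstnΔKC group 5.13-fold. The log2 fold change was -0.38 ± 0.80 (SE, edgeR adjusted p = 0.721), and its 95% interval ran from -2.18 to 1.42.

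Fosb (ENSMUSG00000003545, chromosome 7, 19302721 to 19310045), a Fos protein with a long-lived splice form, had the widest range. Its normal levels were 623, 198, 13.1 and 12.6 CPM and its NcstnΔKC levels 15.7, 48.2, 89.7 and 96.5 CPM, in replicate order. In the normal group the highest library was 49.3-fold above the lowest, and the SD of log2 CPM, 2.82, was larger than that of 99.8% of genes tested (median 0.29). The log2 fold change was -1.76 ± 1.15 (SE, edgeR adjusted p = 0.240).

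Atf3 (ENSMUSG00000026628, chromosome 1, 191170296 to 191218039), a stress-induced partner and repressor, had 229, 46.8, 14.4 and 16.0 CPM in normal skin. NcstnΔKC skin gave 12.8, 41.9, 55.7 and 61.4 CPM. As for Fos, normal replicate 1 was far above the rest and NcstnΔKC replicate 1 below the others of its group. The log2 fold change was -0.83 ± 0.87 (SE, edgeR adjusted p = 0.463).

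Egr1 (ENSMUSG00000038418, chromosome 18, 34859823 to 34864984), a zinc finger factor that is induced with Fos but is no AP-1 subunit, had 822, 456, 122 and 106 CPM in normal and 190, 296, 295 and 320 CPM in NcstnΔKC skin. Normal replicates 1 and 2 lay above every NcstnΔKC library, and normal replicates 3 and 4 below every one. The log2 fold change was -0.45 ± 0.60 (SE, edgeR adjusted p = 0.565).

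Jun (ENSMUSG00000052684, chromosome 4, 95049034 to 95052222), which encodes c-Jun, had 832, 395, 239 and 200.1 CPM in normal skin. Its NcstnΔKC levels of 215, 227, 212 and 246 CPM were nearly level, with an SD of log2 CPM above that of 6.80% of genes tested. The log2 fold change was -0.89 ± 0.40 (SE, edgeR adjusted p = 0.103), and it passed only with scaling by basal keratinocyte genes (-1.30, adjusted p = 0.0171, between 0.0171 and 0.561 in 25 alternatives).

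Normal replicate 1 decided the direction of several of these values. Without it the log2 fold changes were 0.82 for Fos, 0.84 for Atf3, 0.36 for Egr1, -0.15 for Fosb and -0.23 for Jun, and none of the 5 passed, against 40.2% of all genes. Without replicate 1 of both groups, an alternative chosen after seeing the data, they were 1.05, 1.08, 0.44, 0.10 and -0.26, and again none of the 5 passed, against 48.9%. Among the normal libraries the SD of log2 CPM of Fos, Fosb, Atf3, Egr1 and Fosl1 exceeded that of 97.5% to 99.8% of genes tested, and those of Ier3 and Fosl2 exceeded that of 72.1% and 54.0%.

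**Figure D2:**
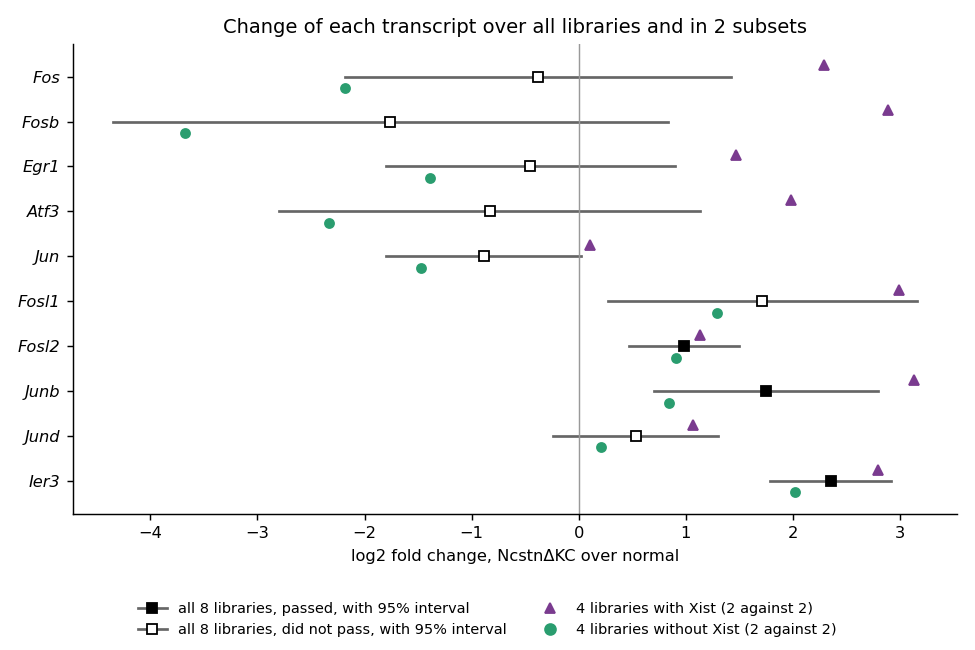
Log2 fold change of NcstnΔKC over normal for each transcript, with all 8 libraries (squares, filled where the adjusted p was under 0.05, lines are 95% intervals), with the 4 libraries that hold Xist (triangles) and with the 4 that do not (circles). Fos, Fosb, Egr1 and Atf3 lie on opposite sides of 0 in the subsets, at 2.29 and -2.18 for Fos.

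The same genes took opposite signs in the libraries with and without Xist. In the 4 with Xist, replicates 3 and 4 of each group, 9 of 10 members were higher in NcstnΔKC skin and 0 lower, against a background of 26.3% and 25.4% (51.7% in either direction). Fos was at 2.29, Fosb at 2.89, Atf3 at 1.98 and Egr1 at 1.47 on the log2 scale there (edgeR adjusted p from 1.16e-04 to 4.17e-04), and only Jun (0.10, adjusted p = 0.561) did not pass. In the 4 without Xist these values were -2.18, -3.68, -2.33 and -1.39, and 0 of 10 members passed, beside 0.0255% of all genes, 0.0191% higher and 0.00638% lower. Junb (3.13 and 0.85), Fosl1 (2.99 and 1.29), Fosl2 (1.13 and 0.91), Jund (1.07 and 0.21) and Ier3 (2.80 and 2.02) kept a positive sign in both subsets. The difference between the subsets was tested as an interaction in a fit over all 8 libraries, added after seeing the data. It was 6.53 ± 0.95 for Fosb, 4.43 ± 0.78 for Fos, 4.28 ± 1.10 for Atf3, 2.82 ± 0.46 for Egr1 and 2.25 ± 0.40 for Junb (SE, log2). None passed adjustment over all genes (edgeR adjusted p = 0.347, 0.405, 0.769, 0.389 and 0.405), nor did any other of the 15684 genes, while 5.85% of genes had an unadjusted p under 0.05. By p among all genes, Fosb, Egr1, Fos and Junb ranked 9, 17, 24 and 27, Atf3 115, Jun 240 and Fosl1 875. Ier3, Jund and Fosl2 ranked 1884, 3057 and 10746. Because the test was added after the data were seen, these ranks are a description only.

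Other features also differed between the libraries. The 7 fibroblast markers, of which 0 were absent in either group, summed to 33523 and 34373 CPM in normal replicates 1 and 2, to 4541 and 5195 CPM in normal replicates 3 and 4, and to 4337 to 12423 CPM in NcstnΔKC libraries. The 12 skeletal muscle markers, 0 of them absent, summed to 22175 CPM in normal replicate 1, to 109172 to 183186 CPM in the other 3 normal libraries and to 4411 to 29658 CPM in NcstnΔKC libraries. The 9 macrophage markers, 0 of them absent, summed to 686 to 1262 CPM in normal libraries, to 647 CPM in NcstnΔKC replicate 1 and to 3176 to 4074 CPM in NcstnΔKC replicates 2 to 4. The fibroblast sum was carried by 3 collagen genes, with Col1a1 at 14467, 15360, 748 and 885 CPM in normal skin, whereas Pdgfra (149, 151, 160.4 and 180.2 CPM) and Thy1 (105, 60.9, 104 and 112 CPM) did not follow it. Dcn (2157, 1558, 1263 and 1466 CPM) and Lum (200, 165, 90.5 and 145 CPM) did, with smaller differences. Both were highest in replicates 1 and 2 among the normal libraries. NcstnΔKC replicate 1, low in Fos, had the lowest fibroblast sum of the 8 libraries, and normal replicate 1, highest in Fos, had a macrophage sum near that of NcstnΔKC replicate 1. The 10 hair follicle markers summed to 37791 CPM in normal replicate 2, to 202 to 665 CPM in the other normal libraries and to 66.9 to 80.7 CPM in NcstnΔKC libraries, where 2 of them were at 0. Mitochondrial transcripts took 3.42% to 5.43% of counts in normal and 0.680% to 0.939% in NcstnΔKC libraries, and Gm42418, a transcript that overlaps ribosomal RNA sequence, took 7.53% to 8.70% and 0.0786% to 1.08%. The part of these shares in the results was not tested. The part of cell make-up in the levels of the 10 genes was not tested, and sex as read from Xist cannot be told apart from any other feature that replicates 3 and 4 share.

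The start regions of Fos, Fosb, Atf3 and Junb are shown because they are the 4 member windows that hold TGACG. This is a known cAMP response half-site, which CREB and ATF proteins can bind. The windows of Fosl2 and Ier3, which rose, and of Jun and Jund do not hold it. Whether the half-site goes with a change in level was not tested. Windows of 250 bases before to 50 after the RefSeq start (GRCm38.p6) were found for 8 of the 10 members. Capitals mark TGACG, read on either strand (CGTCA on the reverse), and each line runs 5′ to 3′ on the strand of the gene.
Fos, chr12:85473640-85473939, plus strand: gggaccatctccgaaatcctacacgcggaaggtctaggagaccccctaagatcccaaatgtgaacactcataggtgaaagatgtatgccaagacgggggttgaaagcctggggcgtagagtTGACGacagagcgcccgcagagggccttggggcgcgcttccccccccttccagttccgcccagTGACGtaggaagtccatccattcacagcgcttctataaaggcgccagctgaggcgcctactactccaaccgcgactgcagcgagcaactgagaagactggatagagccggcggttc
Fosb, chr7:19309996-19310295, minus strand: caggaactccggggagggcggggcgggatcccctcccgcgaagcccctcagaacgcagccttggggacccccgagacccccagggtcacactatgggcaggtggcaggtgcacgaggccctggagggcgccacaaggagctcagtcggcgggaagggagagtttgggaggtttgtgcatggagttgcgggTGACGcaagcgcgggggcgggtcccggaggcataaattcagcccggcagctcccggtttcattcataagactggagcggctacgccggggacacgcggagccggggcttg
Atf3, chr1:191183284-191183583, minus strand: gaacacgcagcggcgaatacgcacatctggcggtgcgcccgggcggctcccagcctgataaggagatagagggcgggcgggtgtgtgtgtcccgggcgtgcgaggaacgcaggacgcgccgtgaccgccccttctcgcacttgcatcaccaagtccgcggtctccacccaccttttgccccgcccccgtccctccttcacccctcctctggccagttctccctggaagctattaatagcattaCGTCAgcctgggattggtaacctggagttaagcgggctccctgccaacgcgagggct
Junb, chr8:84978699-84978998, minus strand: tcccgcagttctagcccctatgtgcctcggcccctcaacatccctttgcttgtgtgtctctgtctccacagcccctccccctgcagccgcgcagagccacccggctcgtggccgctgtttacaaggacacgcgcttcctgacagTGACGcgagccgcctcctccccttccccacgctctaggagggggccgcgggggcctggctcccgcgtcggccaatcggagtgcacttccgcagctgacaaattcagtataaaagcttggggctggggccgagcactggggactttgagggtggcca
The half-site starts 129 and 66 bases before the start of Fos, 60 before that of Fosb, 106 before that of Junb and 7 before that of Atf3, on the reverse strand in Atf3. TGACG was in 4 of the 8 member windows and in 20.8% of all 32851 windows of that length. It was chosen after the full palindrome TGACGTCA (1.79% of all windows), the AP-1 site TGANTCA (7.81%), the Egr1 site GCGTGGGCG (0.612%), the ETS core CCGGAA (14.9%) and the CArG box bound by SRF (1.63%) had been found in 0 of the 8. TGACG is contained in TGACGTCA. Such matches are letters in a window and no measure of binding. Sites outside these windows, and sites that differ from these letters, were not searched. Fosl1 and Egr1 had no window. A count of 0 therefore does not show that a gene lacks such a site.

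The make-up of the Fos and Jun families within a library does not depend on how libraries are scaled. It was read from the deposited FPKM, which are per length and so allow levels of different genes to be set side by side. Among the Jun genes the leading transcript was Jun in the normal libraries and Junb in 3 of the 4 NcstnΔKC libraries. Junb held 16.1%, 22.5%, 12.6% and 18.0% of the summed FPKM of Jun, Junb and Jund in normal libraries and 47.7%, 42.3%, 54.6% and 55.5% in NcstnΔKC libraries. Jun held 67.0% ± 6.03 in normal and 32.5% ± 7.13 in NcstnΔKC skin, and Jund 15.7% ± 3.46 and 17.4% ± 4.94 (SD, n = 4 each). The groups did not overlap for Junb and Jun, and overlapped for Jund. In NcstnΔKC replicate 2 the shares of Jun (43.1%) and Junb (42.3%) were nearly equal. From counts, which are not per length, Junb held a mean of 11.0% in normal and 37.6% in NcstnΔKC skin and Jun 73.4% and 42.0%. Junb was again higher in NcstnΔKC skin, but Jun led in both group means. By library, Junb counts were above those of Jun in NcstnΔKC replicates 3 (3338 against 3074) and 4 (3858 against 3667). Jun was above Junb in NcstnΔKC replicates 1 (2568 against 2563) and 2 (3317 against 1877).

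**Figure D3:**
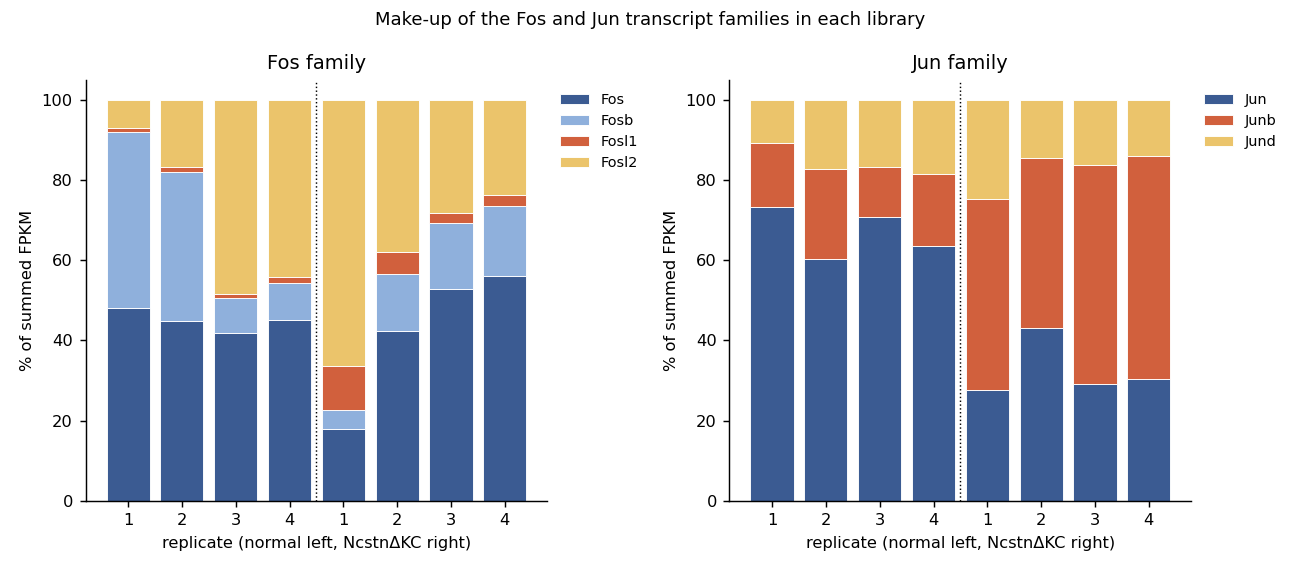
Share of the summed FPKM held by each Fos family gene (left) and Jun family gene (right) in every library. Junb holds 12.6% to 22.5% in normal and 42.3% to 55.5% in NcstnΔKC libraries, while the shares of Fosb and Fosl2 vary widely within each group.

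In the Fos family the make-up varied more between libraries. Fosl1 held 1.29% ± 0.186 in normal and 5.48% ± 3.86 in NcstnΔKC skin (SD, n = 4 each), with groups that did not overlap and its highest share, 10.9%, in NcstnΔKC replicate 1. Fosl2 ran from 7.04% to 48.3% in normal and from 23.6% to 66.5% in NcstnΔKC libraries. Fosb held 43.9% and 37.2% in normal replicates 1 and 2 against 8.55% and 9.21% in replicates 3 and 4, and 4.63% to 17.4% in NcstnΔKC libraries. Fos itself held 41.9% to 48.0% in every normal library, although its level there spanned 11.0-fold. In NcstnΔKC replicates 1 to 4 its share was less even, at 17.9%, 42.2%, 52.8% and 56.0%. From counts, Fosl1 held a mean of 0.379% and 1.29% in normal and NcstnΔKC skin and Fosl2 50.7% and 64.8%. Fosl2 thus led in both group means on that basis. It did not lead in normal replicate 1, where Fos (4542 counts) and Fosb (4102) were above Fosl2 (2037).

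Of 6 ratios between members, each formed within a library from counts with 0.5 added, 4 differed between groups by more than the spread. The log2 ratio of Junb to Jun was -2.77 ± 0.46 in normal and -0.16 ± 0.45 in NcstnΔKC skin (SD, n = 4 each). That of Junb to Jund went from -0.51 ± 0.45 to 0.91 ± 0.44, that of Jun to Jund from 2.26 ± 0.46 to 1.06 ± 0.59, and that of Fosl1 to Fos from -6.22 ± 0.29 to -4.22 ± 1.70. Each of the 4 gave an exact two-sided permutation p of 0.0286, the smallest that 70 arrangements allow (adjusted p = 0.0429 over the 6). The Jun family ratios share the same genes, so each follows from the others and they are not separate results. The adjusted p depends on how many of the 6 ratios reached that smallest p, these linked ones included. Fosl1 to Fosl2 differed by 1.10 (exact permutation p = 0.171) and Fosb to Fos by -0.48 (exact permutation p = 0.429), which did not pass. With 5 counts added instead of 0.5, none of the 4 passed (adjusted p of 0.0571 for the Jun family ratios and 0.171 for Fosl1 to Fos), and the difference of Fosl1 to Fos was 1.59 in place of 2.01. The exact permutation p of the Jun family ratios stayed at 0.0286 there. Their adjusted p rose because that of Fosl1 to Fos did. Without any 1 of normal replicates 1 to 4 the adjusted p of the 4 ratios was 0.0571 to 0.129, and without any 1 NcstnΔKC library it stayed at 0.0429. Over all 8 omissions the difference was 2.44 to 2.83 for Junb to Jun, 1.23 to 1.61 for Junb to Jund, -1.41 to -0.95 for Jun to Jund and 1.22 to 2.44 for Fosl1 to Fos. Without NcstnΔKC replicate 1 the difference of Fosl1 to Fos was 1.22.

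Per length, Junb was the most abundant member in NcstnΔKC skin at 126 ± 35.3 FPKM, followed by Jun at 78.9 ± 9.15, Fos at 61.1 ± 37.7 and Ier3 at 58.2 ± 8.51 FPKM (SD, n = 4 each). Fosl2 (46.9 ± 9.54), Jund (43.2 ± 13.4) and Egr1 (41.2 ± 10.8) lay within each other's spread, as did Atf3 (19.1 ± 10.1) and Fosb (19.0 ± 11.8), and Fosl1 was lowest at 6.23 ± 2.52 FPKM. In normal skin Jun led at 119.6 ± 92.4 FPKM. Fos (65.1 ± 77.1), Fosb (53.2 ± 75.1) and Egr1 (46.1 ± 44.2) followed with spreads as large as their means, and Junb was at 30.7 ± 21.0, Ier3 at 9.26 ± 3.08 and Fosl1 at 1.63 ± 1.63 FPKM.

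The genes whose deviations from their group mean were most like those of Fos were then read from 12354 genes with a mean of at least 5 CPM. These correlations span 8 libraries of 2 groups and are given as a description. Atf3 (r = 0.98), Fosb (0.98) and Egr1 (0.92) ranked 7, 9 and 43, whereas Jun (0.85), Junb (0.80), Fosl1 (0.54), Ier3 (0.47), Jund (0.40) and Fosl2 (0.18) were less like it. The 5 most alike were Ltb4r2, Sec24d, Sparc, Serp1 and Tsku (r from 0.98 to 0.99). Sparc, a matrix protein of fibroblasts, had 2994, 1446, 497 and 607 CPM in normal skin and 332, 455, 778 and 896 CPM in NcstnΔKC skin. Within each group this is the order that Fos shows, apart from replicates 3 and 4 of the normal group. Across the groups the orders of Sparc and Fos differ further.

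Of 38 further immediate early genes listed, 37 were tested, 14 rose and 4 fell, against 21.4% higher and 22.7% lower over all genes, with a median log2 fold change of 0.37 beside -0.02. Arc, a synaptic immediate early gene that migratory skin dendritic cells also express, was at 3.76 ± 3.62 CPM in normal skin and 41.5 ± 3.48 CPM in NcstnΔKC skin (SD, n = 4 each). It rose by 3.47 ± 0.53 on the log2 scale (SE, edgeR adjusted p = 0.00130), and 4.50 without normal replicate 1. The zinc finger genes Zfp36l2, which encodes an RNA decay factor, and Klf10, a TGF-β-induced repressor, rose by 1.25 ± 0.21 and 0.81 ± 0.15, whereas Ctgf, a matricellular protein induced by YAP and TGF-β, fell by 1.83 on the log2 scale (SE 0.32). Klf10 was at 0.30 and no longer passed with scaling by basal keratinocyte genes. Genes of the list that passed further included Csrnp1 (2.38 ± 0.51), Nr4a3 (1.84 ± 0.52), Ier5 (1.08 ± 0.25) and Btg2 (0.99 ± 0.24), which rose, and Egr3, which fell by 0.96 on the log2 scale (SE 0.29). Among those that did not pass, and chosen with Csrnp1, Nr4a3, Ier5, Btg2 and Egr3 after their values were seen, were Dusp1 (0.37 ± 0.38), Ier2 (0.66 ± 0.46), Nr4a1 (0.37 ± 0.32) and Zfp36 (-0.69 ± 0.53). Dusp1 and Nr4a1 were at -0.05 and -0.04 with scaling by basal keratinocyte genes. In the libraries with Xist alone these 4 passed at 1.30, 1.95, 1.05 and 0.83, and 23 of 37 genes of the list rose there, against 26.3% of all genes. In the libraries without Xist they were at -0.27, 0.0016, -0.11 and -1.56, and 0 of 37 rose, against 0.0191%. Some calls of this list depended on the scaling. Nr4a3 (1.47), Ier5 (0.63) and Btg2 (0.55) did not pass with scaling by basal keratinocyte genes. Egr3 (-0.67) did not pass with scaling by total counts, whereas Csrnp1 passed with both.

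**Figure D4:**
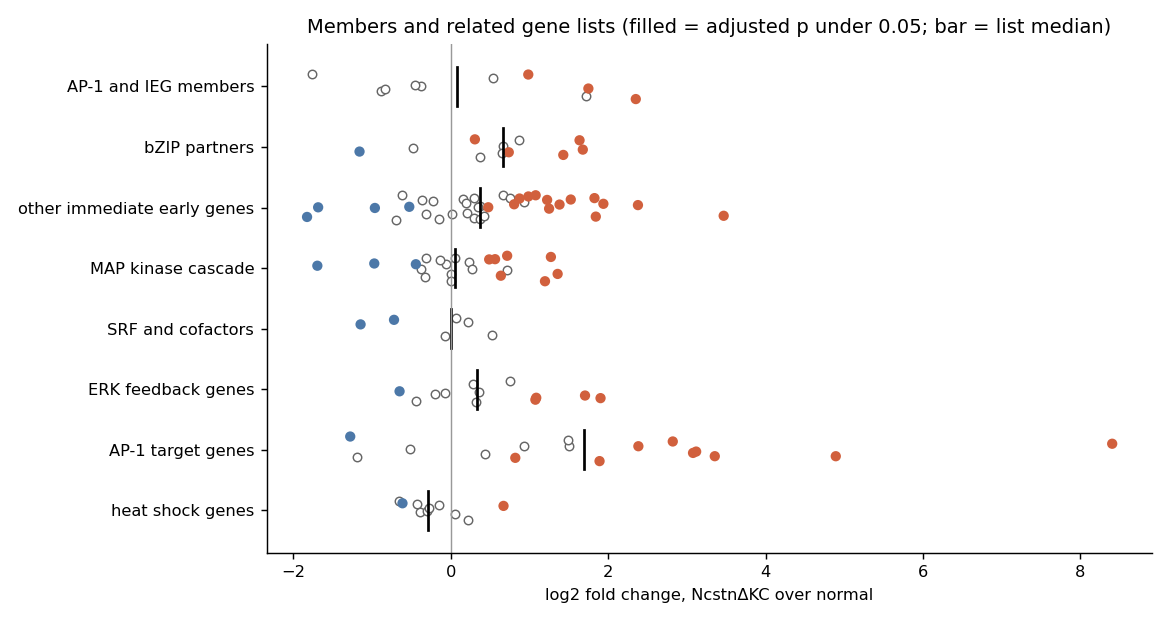
Log2 fold change of NcstnΔKC over normal for each tested gene of the 10 members and of 7 related lists. Filled points passed an adjusted p of 0.05 and bars are list medians, which run from -0.29 for heat shock genes to 1.70 for AP-1 target genes.

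Upstream of AP-1, 7 of 21 MAP kinase cascade genes rose and 3 fell, against 21.4% higher and 22.7% lower over all genes, with a median of 0.05. The MEK1 gene Map2k1 (1.36 ± 0.16), Nras (1.20 ± 0.16) and the JNK kinase gene Map2k4 (0.72 ± 0.10) rose, and the p38 kinase gene Map2k6 fell by 1.70 on the log2 scale (SE 0.27). Map2k4 did not pass with scaling by basal keratinocyte genes (0.24). Of 6 genes for SRF and its cofactors, which drive Fos and Egr1 through the serum response element, 0 rose and 2 fell against the same shares, Elk1 by 1.15 and Mkl2 by 0.72 on the log2 scale. The call of Mkl2 ended, at -0.63 to -0.65, without any of normal replicates 3 and 4 and NcstnΔKC replicates 2, 3 and 4, and with scaling by total counts (-0.43) or limma on log2(FPKM + 1) (-0.39). Elk3 (0.52 ± 0.30) and Elk4 (0.22 ± 0.17) did not pass, although Elk3 did without NcstnΔKC replicate 1 (0.75), and with scaling by basal keratinocyte genes they were at -0.01 and -0.21.

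ERK feedback genes, which ERK signalling itself induces, included 4 of 12 that rose and 1 that fell, against 21.4% higher and 22.7% lower over all genes, with a median of 0.34. The ERK phosphatase gene Dusp6 was at 32.4 ± 12.3 CPM in normal and at 121 ± 38.1 CPM in NcstnΔKC skin (SD, n = 4 each), a rise of 1.90 ± 0.31 (SE, log2). The Ets factor gene Etv4 rose by 1.71 ± 0.25, the Ras-ERK inhibitor gene Spred1 by 1.09 ± 0.12 and Phlda1 by 1.08 ± 0.23 on the log2 scale, the last of which did not pass with scaling by basal keratinocyte genes (0.56). Etv5, a close relative of Etv4, fell by 0.65 on the log2 scale, and did not pass with scaling by total counts (-0.34). Dimer partners from the bZIP family moved in both directions. Of 11 tested among 12, 5 rose and 1 fell against the same shares, with Batf (1.64 ± 0.40) and Atf4 (0.74 ± 0.24) among those that rose. Jdp2, a repressor of AP-1, fell by 1.16 on the log2 scale (SE 0.21). Atf4 did not pass without normal replicate 4 (0.76, adjusted p = 0.0541, between 0.00245 and 0.502 in 25 alternatives), nor with scaling by basal keratinocyte genes (0.29).

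Among 18 genes with textbook AP-1 control, 16 were tested, 9 rose and 1 fell, against 21.4% higher and 22.7% lower over all genes, with a median of 1.70. The collagenase gene Mmp13 had 0.413 ± 0.330 CPM in normal and 134 ± 116 CPM in NcstnΔKC skin (SD, n = 4 each), with 6.21 CPM in NcstnΔKC replicate 1 against 68.1 to 249 CPM in the other 3. Its log2 fold change of 8.41 ± 1.31 (SE, edgeR adjusted p = 0.00140) did not pass with limma-voom (7.65, adjusted p = 0.0743, between 7.98e-11 and 0.107 in 25 alternatives). Ptgs2, which encodes the inducible cyclooxygenase, rose by 3.35 ± 0.51, the urokinase receptor gene Plaur by 3.12 ± 0.47 and the osteopontin gene Spp1 by 1.89 ± 0.29 on the log2 scale. Without normal replicate 1, Ptgs2 was at 4.19 and Plaur at 3.73. Involucrin (Ivl), a cornified envelope protein, fell by 1.28 on the log2 scale (SE 0.34). The list holds genes of inflamed skin and of neutrophils, and the 8 neutrophil markers summed to 3.19 to 13.9 CPM in normal and 94.2 to 380 CPM in NcstnΔKC libraries, with 1 of the 8, Ly6g, at 0 counts in the normal group. Their part in these values was not tested.

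Heat shock genes, which handling and protein stress induce, were given for comparison. Of 10 genes 1 rose and 1 fell, against 21.4% higher and 22.7% lower over all genes, with a median of -0.29. Dnajb1 had a log2 fold change of 0.67 ± 0.21 and Hspa1a of -0.61 ± 0.18 (SE, edgeR adjusted p = 0.0275 and 0.0228). The call of Dnajb1 ended without any of 6 libraries (0.61 to 0.68), namely normal replicates 2, 3 and 4 and NcstnΔKC replicates 2, 3 and 4. It ended also with scaling by basal keratinocyte genes (0.23). The call of Hspa1a ended without normal replicate 1 (-0.35), 3 or 4 or NcstnΔKC replicate 3, and with total counts (-0.31), no filter (-0.48), a replicate block (-0.59) or limma on log2(FPKM + 1) (-0.25). Bag3 (-0.43 ± 0.18) and Hsp90aa1 (-0.39 ± 0.17) did not pass, though Bag3 did without NcstnΔKC replicate 1 (-0.59). In normal replicate 1, where Fos and Fosb were highest, the list did not move one way. Hspa1a was at 89.3 CPM against 55.0 to 60.0 CPM in the other normal libraries and Dnajb1 at 79.7 against 40.4 to 47.6 CPM, and Hspa1b and Hspb1 were also highest there. Hsph1 was at 50.1 against 72.6 to 125.5 CPM, and Hspa8, Hsp90aa1, Hspe1, Hspd1 and Bag3 were also lowest there among the normal libraries.

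Counts of calls in these lists moved with the scaling. With total counts alone, calls higher and lower were 15 and 2 for the immediate early genes, 8 and 1 for the MAP kinase genes, 1 and 1 for SRF and cofactors, 6 and 0 for ERK feedback genes, 7 and 1 for bZIP partners, 11 and 1 for AP-1 target genes and 1 and 0 for heat shock genes. With basal keratinocyte genes they were 4 and 5, 2 and 8, 0 and 2, 3 and 1, 1 and 2, 8 and 3, and 0 and 7 in the same order.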

How the data were processed

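Skin RNA was sequenced from 4 normal and 4 NcstnΔKC libraries, grouped by their labels. The authors deposited gene counts and FPKM. Per the submitters' processing notes the tools were TopHat2 2.0.9, TopHat and HTSeq, and the builds named are mm10 and hg38. The counting's strand setting is not given in the sources used here. In the deposited FPKM, each gene's value was its count over the library total times a constant (9175 genes, spread over libraries at most 0.00177%), so FPKM carry total-count scaling. The deposited counts were tested with edgeR 4.0.16 in R 4.3.3 (filterByExpr, TMM scaling, robust quasi-likelihood fit, two-sided), with Benjamini-Hochberg adjustment over 15684 genes and a threshold of 0.05. The test was checked on simulated counts, in which 200 of 15684 genes were seeded with a change. Of those tested, it recovered 0 of 81 seeded at 1.5-fold, 4 of 58 at 2-fold and 41 of 56 at 4-fold. A gene that did not pass is thus not shown to be unchanged. Few genes were seeded there, while 44.1% passed in the data, so recovery in the data can differ. Total counts of 5835422 to 12893174 per library set the counting precision, and intervals are at 95%. Alternatives used other scalings, filters and subsets, limma 3.58.1 and DESeq2 1.42.0. Described were all 10 members, in each list the 4 genes with the lowest p and others where a group is described, and the 5 genes most like Fos. A gene that this rule names is not reported here. The members and lists were chosen with earlier results of these data known. Sequences are from RefSeq, which held windows for 8 of the 10.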

Additional observations from a re-analysis of the deposited data

Results flagged for a closer look

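Atf3 in normal replicate 1, at 229 CPM, lay far from the other 3 normal libraries at 14.4 to 46.8 CPM. It was the 1 such value among 36 groups of 4 libraries looked at with Dixon's test, which chance gives in about 1 of 20 groups.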

How the results depend on the processing

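In the fit reported 6915 genes passed, and 25 alternatives were run. Leaving out 1 library gave 5619 to 7994 genes, 3 to 4 members higher and 0 lower. The libraries without Xist alone gave 4 genes and 0 members higher, the libraries with Xist alone gave 9 members higher, and scaling by basal keratinocyte genes gave 1 member lower, Jun. Both Xist subsets hold 2 against 2 libraries, fewer than the fit reported, and the subset with Xist gave 8387 genes. The cause of the difference between the subsets was not tested. The labels do not say whether replicate numbers pair the libraries. Deviations of libraries with the same number had correlations of -0.018, -0.032, -0.013 and 0.22, and 1 of 4 was best matched by its own number. Such correlations cannot show whether the libraries were paired. The replicate block gave 5981 genes and 4 members higher, and turned Fos to 0.25, Egr1 to 0.071 and Atf3 to 0.21. Signs also turned as follows, on the log2 scale. With Xist alone, Fos was at 2.29, Fosb at 2.89, Atf3 at 1.98, Egr1 at 1.47 and Jun at 0.10. With limma on log2(FPKM + 1) Fos was at 0.38, Egr1 at 0.34, Atf3 at 0.17 and Ncstn at 0.23, and on log2(FPKM + 0.1) at 0.39, 0.36, 0.21 and 0.25. With limma-voom Fos was at 0.080 and Egr1 at 0.037. Without normal replicate 1 Fos was at 0.82, Atf3 at 0.84, Egr1 at 0.36 and Ncstn at 0.0055, and without normal replicate 3 Ncstn was at 0.0011. Leaving out each library in turn, Fos ran from -0.66 to 0.82, Atf3 from -1.13 to 0.84, Egr1 from -0.71 to 0.36 and Ncstn from -0.14 to 0.0055. Without replicate 1 of both groups, chosen after seeing the data, Fos was at 1.05, Fosb at 0.10, Atf3 at 1.08 and Egr1 at 0.44. Basal keratinocyte scaling put Elk3 at -0.0060 and Elk4 at -0.21. Ncstn was at 0.063 with no filter and 0.24 with total counts. Fosl1 had the fewest counts, 6 to 45 in normal libraries, which bounds its counting precision.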
